A study of Homo sapiens with 4 samples.

Results

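The immunoglobulin heavy, kappa and lambda loci were examined for IRF3 peaks in MM1.S, an established human multiple myeloma cell line. Members were the peaks whose summit lay in chr14:105580000-106880000 (heavy chain), chr2:88850000-90240000 (kappa chain) or chr22:22020000-22930000 (lambda chain, with IGLL5), in GRCh38 coordinates. They numbered 171 of 83546 peaks, with 92 of 41880 in replicate 1 and 79 of 41666 in replicate 2. Peaks of both replicates that touched were merged into 99 regions of 49089 in the genome. Regions that held peaks of both replicates are called shared here, and 57 of the 32246 shared regions lay in the loci.

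IRF3 was profiled in 2 ChIP replicates, each with an input library. All came from MM1.S cells grown in RPMI 1640 medium with fetal bovine serum, given no treatment and fixed with formaldehyde. Peak calling used 38568845 and 46474586 ChIP tags against 58025919 and 60348415 input tags. The labels do not state whether the replicates were grown separately, which leaves a technical spread possible, and no test was run between loci or segments. Fold enrichment, the ChIP signal over the local input background at a summit, and pileup, the height of stacked fragments there, are the authors' own values for each peak.

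Antibody genes are put together from V, D and J segments by recombination, and the joined exon is transcribed with a constant segment. In the heavy locus, an enhancer lies between the J segments and the repeats of the switch region before IGHM, and further enhancers lie downstream of each alpha constant gene. Switch recombination later moves the joined exon next to another constant gene. The light chain loci carry enhancers beyond their constant genes, where IRF4, a relative of IRF3, is known to act with the ETS factor PU.1. MM1.S is known to secrete a lambda light chain and to carry a translocation that joins the heavy locus to the MAF gene region.

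The strongest shared regions of the heavy constant end lay between IGHM, the mu constant segment, and IGHJ6, where RefSeq annotates microRNA hairpins made of switch-like repeats. The hairpins are shown because the summits of both replicates fell on 2 of them. They are read from the minus strand of chromosome 14 in the RefSeq table of GRCh38.p14, 5′ to 3′, with the pentamers GAGCU and GGGCU in capitals.
MIR4539: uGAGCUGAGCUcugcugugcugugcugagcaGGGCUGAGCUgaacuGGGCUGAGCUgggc
MIR4507: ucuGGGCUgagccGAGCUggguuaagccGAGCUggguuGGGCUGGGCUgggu
MIR4538: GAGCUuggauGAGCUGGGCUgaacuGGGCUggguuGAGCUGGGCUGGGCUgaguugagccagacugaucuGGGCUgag
MIR4537: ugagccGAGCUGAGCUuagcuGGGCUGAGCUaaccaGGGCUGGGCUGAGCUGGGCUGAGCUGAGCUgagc
MIR4539 lies at chr14:105857513-105857572 and holds 6 pentamers, which make up 50% of its bases. MIR4507 lies at chr14:105858124-105858175 and holds 5 (48.1%), and the replicate 2 summit fell in it. MIR4538 lies at chr14:105858165-105858242 and holds 8 (51.3%), and the replicate 1 summit fell in it. MIR4537 lies at chr14:105859484-105859553 and holds 10 (71.4%). Of 1562 human hairpins in the table, 390 (25.0%) held at least 1 such pentamer and 4 (0.256%) held 5 or more, which were these. The pentamers were searched on the strand shown and were chosen after the position of the summits was known. The reads behind such repeats can be hard to place, and which copy they came from cannot be told from peak lists.

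In the lambda locus, 2 RefSeq promoter windows, which run from 250 bases before to 50 bases after a gene start, held the summit of a peak from each replicate. Both belong to long non-coding RNAs on the minus strand, and capitals mark CAGCTG, an E-box of the kind bound by TCF3 and related factors. They are shown because a peak bears on the promoter itself.
LOC105372952: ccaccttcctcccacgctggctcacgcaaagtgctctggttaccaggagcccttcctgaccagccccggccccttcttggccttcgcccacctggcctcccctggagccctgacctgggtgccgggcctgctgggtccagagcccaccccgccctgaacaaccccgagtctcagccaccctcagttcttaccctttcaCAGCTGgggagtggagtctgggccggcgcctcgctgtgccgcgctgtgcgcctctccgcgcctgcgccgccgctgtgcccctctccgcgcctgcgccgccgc
LOC105372948: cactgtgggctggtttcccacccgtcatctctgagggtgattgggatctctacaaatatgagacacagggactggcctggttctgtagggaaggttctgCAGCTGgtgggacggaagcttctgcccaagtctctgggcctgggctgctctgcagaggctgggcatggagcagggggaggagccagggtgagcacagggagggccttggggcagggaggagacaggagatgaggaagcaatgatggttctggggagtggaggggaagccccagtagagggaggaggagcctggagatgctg
The LOC105372952 window lies at chr22:22298103-22298402. Counted from its first base shown, the summits were at positions 72 and 121 in replicates 1 and 2, and the E-box began at 199. In the LOC105372948 window, at chr22:22882379-22882678, the summits were at positions 23 and 30 and the E-box began at 100. Of 35116 promoter windows in the table, 17.9% held CAGCTG, compared with 12 of the 32 windows in the loci and 5 of the 8 that overlapped a shared region. The octamer ATGCAAAT, a known element of V segment promoters, was in 1.77% of all windows and in 0 of the 32, none of which belonged to a V, D, J or constant segment. The ISRE-type motif GAAANNGAAA, of the kind bound by interferon regulatory factors, was in 3.57% of all windows, in 1 of the 32 and in 0 of the 8. The EICE-type motif GGAANNGAAA, of the kind bound by an ETS factor with IRF4, was in 2.82% of all windows and in 0 of the 32. AP-1 sites TGANTCA were in 7.71% of all windows, in 3 of the 32 and in 2 of the 8. Both strands were searched, a match to 1 motif could overlap a match to another, and several windows of a gene share sequence. The 32 windows come from 23 genes. The 5 with CAGCTG include overlapping windows of LOC102724653, and the 2 with an AP-1 site are overlapping windows of LOC102724638. The counts thus repeat sequences, and no difference from all windows is read from them.

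Over the whole windows, IRF3 peaks were dense in the lambda locus, intermediate in the heavy locus and sparse in the kappa locus. Lambda held 51 peaks in replicate 1 and 43 in replicate 2, heavy 28 and 27, and kappa 13 and 9. Per megabase this came to 56.0 and 47.3 peaks in lambda, 21.5 and 20.8 in heavy, and 9.35 and 6.47 in kappa, against 13.8 in each replicate over chromosomes 1 to 22 and X. The order of the loci was the same in both replicates, and the replicates lay closer to each other than to the next locus. Peaks covered 5.42% and 5.09% of the lambda window, 1.60% and 1.23% of the heavy window and 0.414% and 0.294% of the kappa window. The genome-wide cover was 0.898% and 1.01%, so lambda and heavy were above it and kappa was below it in both replicates. The kappa window takes in 521.328 kb without segments between its V clusters, with 1 peak in each replicate. Its proximal V part had 12.8 peaks per megabase in each replicate, and its distal V part 15.5 and 5.15.

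**Figure D1:**
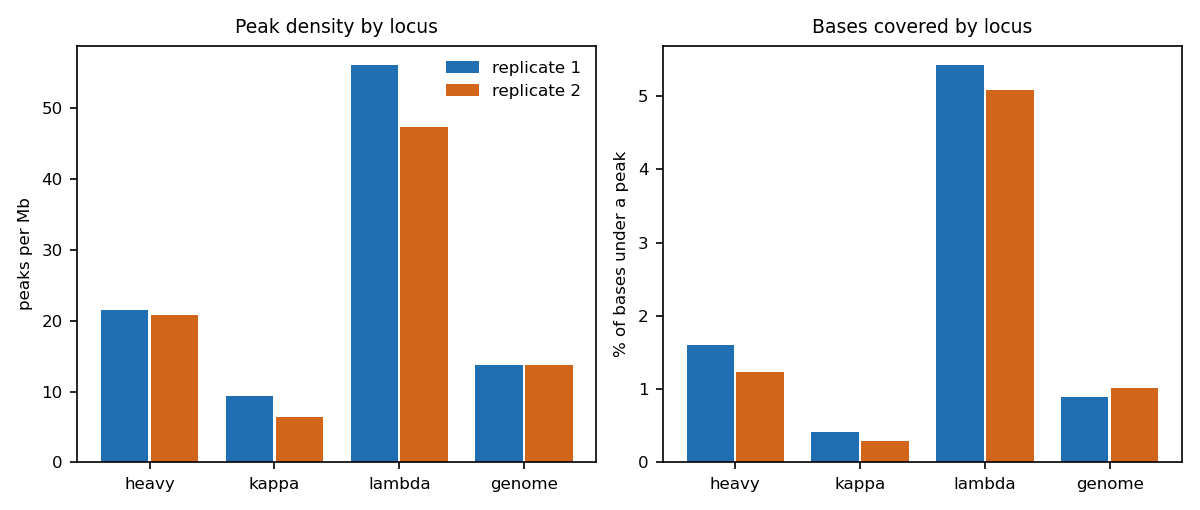
Peaks per megabase (left) and percent of bases under a peak (right) in each locus and over chromosomes 1 to 22 and X, with a bar for each replicate. The lambda bars, at 56.0 and 47.3 peaks per megabase, stand above those of heavy, kappa and the genome in both panels.

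Shared regions numbered 33 in lambda, 18 in heavy and 6 in kappa, which is 36.3, 13.8 and 4.32 per megabase, against 10.6 in the genome. Within kappa, the proximal and distal V parts had 8.54 and 5.15 per megabase, and the stretch between them had 0. Of the merged regions, 66.0% were shared in lambda, 54.5% in heavy and 37.5% in kappa, where 65.7% of all regions in the genome were shared. The lambda share was therefore near the background, and the heavy and kappa shares were lower. Regions of replicate 1 alone numbered 11, 10 and 7 in lambda, heavy and kappa, and those of replicate 2 alone 6, 5 and 3. The stretch just above the lambda window, of the same length as the window, held 27.5 shared regions per megabase and the stretch just below it 13.2. The stretch below the heavy window held 15.4 per megabase, and above it lies the chromosome end. Around kappa the values were 14.4 below and 1.44 above.

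By fold enrichment, lambda and heavy regions were alike and kappa regions were low, whereas by median pileup the heavy peaks (34 and 27) were near those of kappa (32 and 31) and below those of lambda (64 and 45). The median fold enrichment of shared regions was 5.41 and 5.34 in lambda and 5.48 and 5.36 in heavy, in replicates 1 and 2, both above the genome medians of 4.28 and 4.94. In kappa it was 3.59 and 2.92, below the genome medians in both replicates. The highest value of a shared region was 21.5 and 26.3 in lambda, 11.9 and 17.3 in heavy and 5.73 and 4.63 in kappa. Among the strongest 20% of shared regions in the genome were 9 of the 33 lambda regions, 4 of the 18 heavy regions and 0 of the 6 kappa regions. Replicate 1 gave the higher fold enrichment at 31 of the 57 members, whereas replicate 2 gave the higher at 68.2% of those of the whole genome.

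**Figure D2:**
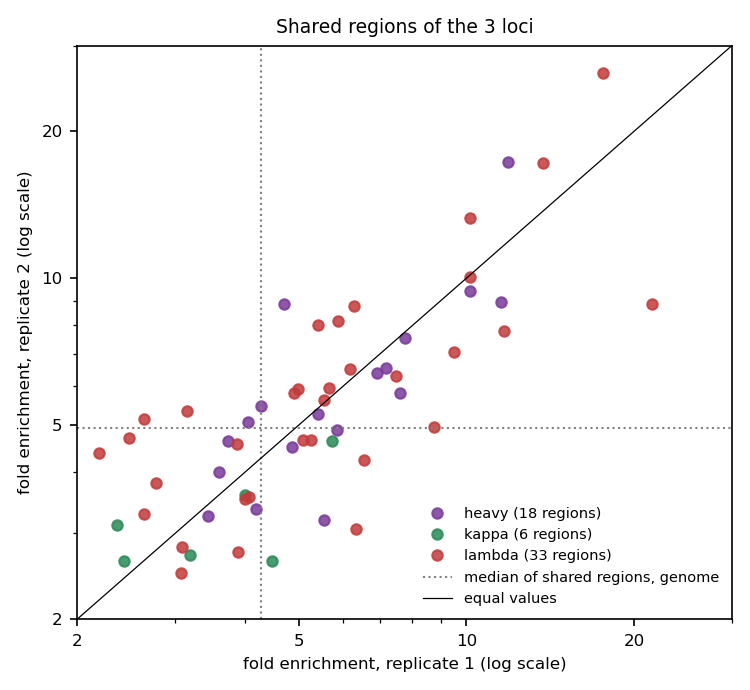
Fold enrichment of the 57 shared regions in replicate 1 (horizontal) and replicate 2 (vertical), both on log scales, coloured by locus, with dotted lines at the genome medians and a line of equal values. The 6 kappa regions sit at the lower left, at 5.73 or less in replicate 1, and the highest points are lambda regions and the heavy region at IGHV3-30.

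**Figure D3:**
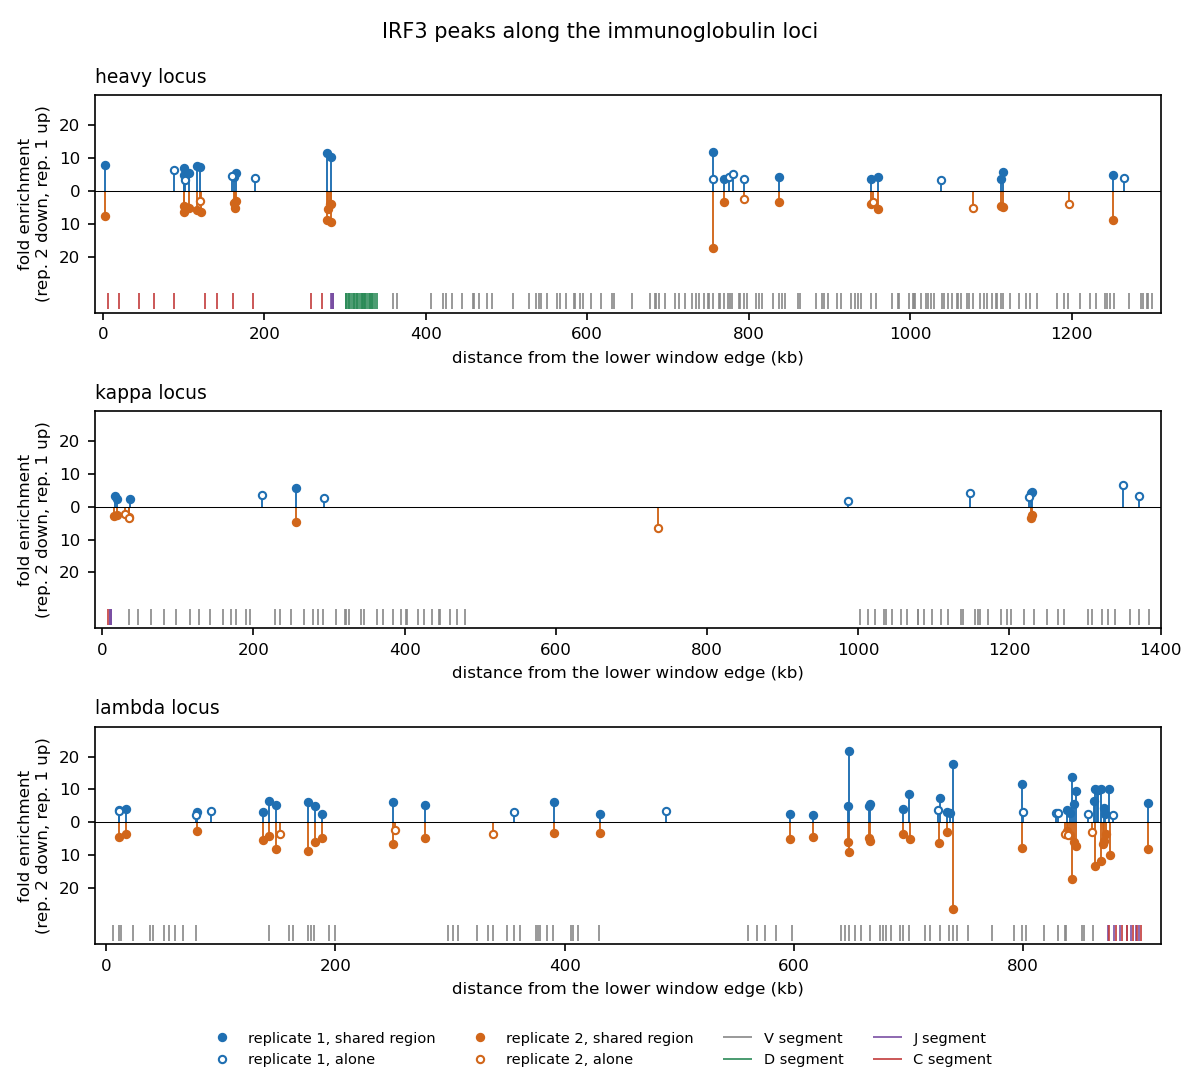
Fold enrichment of each peak along the 3 loci, replicate 1 upward and replicate 2 downward, against distance from the lower window edge, with filled points for shared regions, open points for 1 replicate alone and ticks for V, D, J and constant segments. Heavy peaks cluster at the constant end and again among the V segments beyond a stretch of 471.702 kb with no peak.

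The constant and J end of the heavy locus, 285.678 kb long, held 10 shared regions, or 35.0 per megabase. Their median fold enrichment was 7.04 and 6.11 in the 2 replicates. The remaining 1014.32 kb with the D and V segments held 8, or 7.89 per megabase, with medians of 4.23 and 4.77. In the constant and J end, 9 of the 10 shared regions had the higher value in replicate 1. There, 8 of 15 replicate 2 peaks sat at the lowest input background that MACS2 allows, compared with 0 of 14 in replicate 1. Whether this bears on the order of the replicates was not tested.

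Around the mu gene, a region at chr14:105857750-105860781 reached a fold enrichment of 11.5 in replicate 1 and 8.92 in replicate 2, with pileups of 74 and 56. Its summit lay 1973 bp beyond the span of IGHM, the mu constant gene, and it is the region that covers MIR4507, MIR4538 and MIR4537. MIR4539 lay outside it, 0.618 kb from the summit. The next region, chr14:105860788-105863345, reached 10.2 and 9.40 with pileups of 151 and 88, and its summit lay 1008 bp from IGHJ6, the J segment nearest to IGHM. Both regions were high in both replicates. Together they filled most of the stretch between IGHM and IGHJ6, where the switch mu repeats and the intronic enhancer are known to lie. The region near IGHJ6 overlapped that segment, but none of the 9 heavy J segments had the summit of a shared region, taken from its strongest peak, within 1 kb. A weaker peak of replicate 2 in that region had its summit inside IGHJ6, at 4.14, and with the peaks of replicate 2 alone 4 J segments of the 3 loci were within 1 kb of a summit.

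Downstream of the alpha genes there were several shared regions. The region chr14:105581436-105582507 had fold enrichments of 7.75 and 7.55 and pileups of 154 and 117, and its summit lay 4754 bp from IGHA2, the alpha 2 constant gene. The region chr14:105700105-105701623 had values of 7.17 and 6.55 and lay 6198 bp from IGHA1, the alpha 1 constant gene. Further from IGHA1 on the same side were regions at 105696246-105696623 (7.59 and 5.83), 105686411-105686699 (5.41 and 5.26), 105680668-105681297 (4.87 and 4.51) and 105679954-105680463 (6.90 and 6.39). The first of these lay 10.791 kb from IGHA1. The segment nearest to the others was not IGHA1 but the constant pseudogene IGHGP, at 16.516, 10.857 and 10.177 kb. In each of the 6 regions named here replicate 1 was the higher. The replicate 2 peaks of the regions further from IGHA1 sat at the lowest input background allowed. The regulatory stretches downstream of the alpha genes are copies of each other, so the placement of reads between them is uncertain, and the gene table marks no enhancers.

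Of the 11 heavy constant segments, IGHG1, which encodes the gamma 1 chain, had a shared summit within 1 kb. Its region, chr14:105741550-105743554, had fold enrichments of 4.05 and 5.07. The summit of its strongest peak, from replicate 2, lay 251 bp from the segment and 1276 bp from the replicate 1 summit. The replicate 1 summit, at base 105742045, lay inside IGHG1. So did that of a weaker replicate 2 peak (3.60), at 105742168. A weaker neighbour at 105744075-105744839 (5.54 and 3.20) lay 1522 bp from IGHG1. IGHG3, the gamma 3 gene, had a peak in its span in replicate 1 alone, at 3.87, and the pseudogene IGHGP had one 68 bp away in replicate 1 alone, at 6.42, the strongest peak of replicate 1 alone in the locus. The nearest shared summit was 17.883 kb from IGHE (epsilon), 42.293 kb from IGHG4, 35.428 kb from IGHG2, 12.513 kb from IGHD (delta) and 20.794 kb from the pseudogene IGHEP1. No shared region lay in the 112.91 kb that take in IGHG3, IGHD and IGHM.

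**Figure D4:**
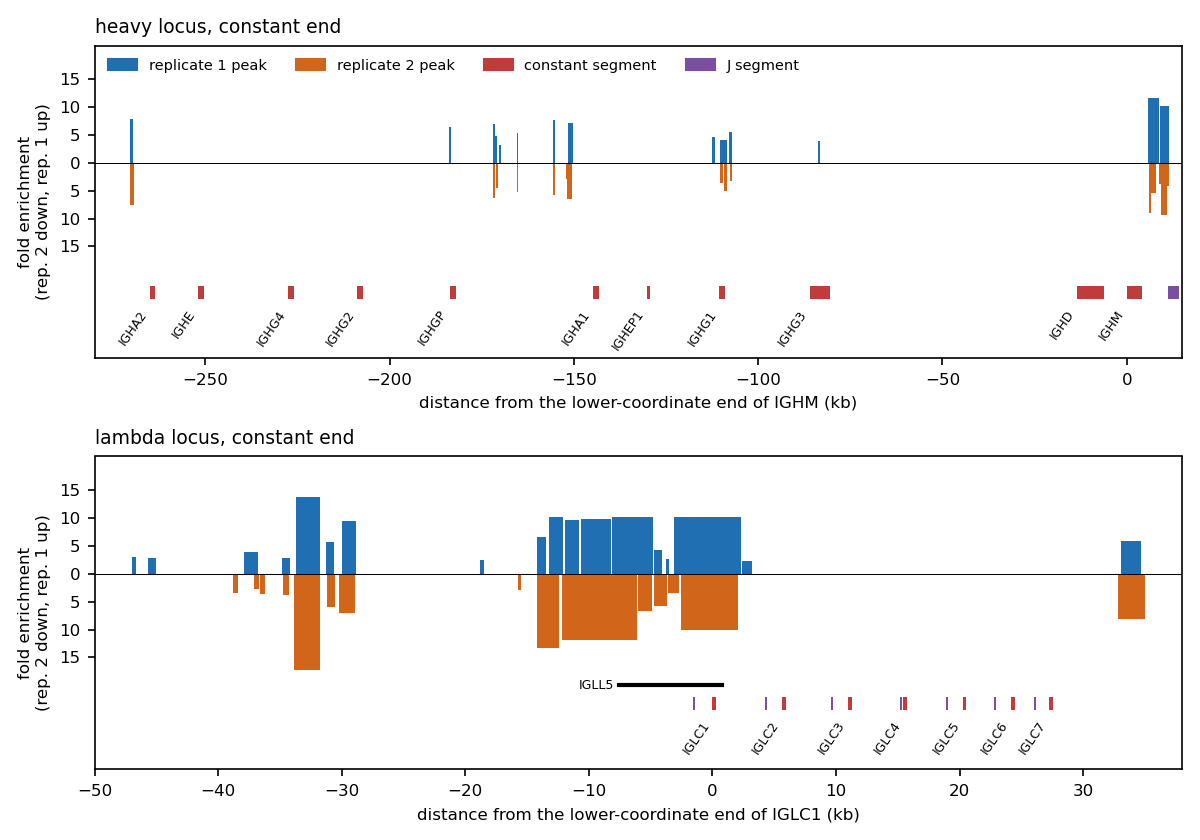
Peaks at the constant ends of the heavy (top) and lambda (bottom) loci, drawn as boxes of their length and fold enrichment, replicate 1 upward and replicate 2 downward, with constant and J segments and IGLL5 marked beneath. The tallest heavy boxes lie between IGHM and the J segments, and the lambda boxes end just after IGLC1 and resume beyond IGLC7.

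None of the 27 D segments had a shared summit within 1 kb (exact 95% upper limit 12.8%). No peak of either replicate lay in a stretch of 471.702 kb that takes in IGHJ3P to IGHV3-29, with 44 V, 27 D and 8 J segments. Recombination removes the DNA between the joined segments on a rearranged allele, and whether that bears on this stretch was not tested. Of 127 heavy V segments, 7 had a shared summit within 1 kb (5.51%, 95% interval 2.24 to 11.0%). The background for this count is 6.01%, the share of other genes of up to 1 kb in the genome with a shared summit within 1 kb of their span, so the heavy V segments were near it. Intervals are exact binomial (Clopper-Pearson) and cover counting error only, and neighbouring segments can share a region.

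IGHV3-30, a V segment with a functional annotation, had the strongest region of the heavy locus. The region, chr14:106335048-106335569, reached fold enrichments of 11.9 and 17.3 with pileups of 74 and 91, the summits were 47 bp apart, and they lay inside the segment. Taking the strongest peak of each of the 18 shared heavy regions, this region was the only one with its summit inside a segment span. Weaker peaks of other shared regions had summits inside IGHG1 and IGHJ6. IGHV3-30 has near-identical neighbours in its family, so the segment the reads came from is uncertain, and of 48 IGHV3 segments it was the single one with a shared summit within 1 kb. IGHV4-30-2 had 3.44 and 3.26, with the summit 112 bp away. The other 5 were all pseudogenes of the IGHVIII family, which has 17 members. IGHVIII-76-1 had 4.71 and 8.83 at 550 bp, IGHVIII-67-4 had 5.86 and 4.89 at 257 bp, and IGHVIII-67-3 had 3.74 and 4.65 at 708 bp. IGHVIII-47-1 had 3.60 and 4.0, and IGHVIII-38-1 had 4.19 and 3.37. Both of these, IGHVIII-67-3 and IGHV4-30-2 were below the genome medians in both replicates. The strongest peak of replicate 2 alone, at 5.26, lay 136 bp from IGHV3-64.

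The lambda locus held its strongest regions at V segments and in the stretch leading to IGLC1. At IGLV2-14, a functional V segment, the region chr22:22756115-22759208 reached fold enrichments of 17.6 and 26.3 with pileups of 286 and 228. Both replicates had their summit at the same base, 22758782, inside the segment, and the region ranked 217 among all shared regions of the genome. IGLV3-27 had 21.5 in replicate 1 and 8.87 in replicate 2 (pileups 264 and 83), so its size differed between replicates while the summits were 21 bp apart. IGLV3-9 had 11.7 and 7.79, and IGLV6-57 had 6.29 and 8.78, each with the summit inside the segment. IGLV3-16 had 7.48 and 6.31, with the summit 206 bp away.

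Of 73 lambda V segments, 15 had a shared summit within 1 kb (20.5%, 95% interval 12.0 to 31.6%), above the background of 6.01%. Among those with a functional annotation the count was 12 of 37 (32.4%, 18.0 to 49.8%), and among pseudogenes it was 3 of 36 (8.33%, 1.75 to 22.5%). The IGLV3 family gave 6 of its 23 members. No test was made between these classes, since neighbouring segments are not independent. In kappa the count was 1 of 76 V segments (1.32%, 0.0333 to 7.11%), and over all 3 loci it was 23 of 276 (8.33%, 5.36 to 12.2%).

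Between IGLV3-4 and IGLC2, a stretch of 43.156 kb picked after its peaks were seen, there were 11 regions, 7 of them shared. All its peaks, 15 in replicate 1 and 13 in replicate 2, covered 49.9% and 49.0% of the bases. The region chr22:22861523-22863642, inside the long non-coding RNAs LOC105372948 and LOC124905086, had fold enrichments of 13.7 and 17.3 and pileups of 144 and 124. A neighbour at 22865122-22866489 had 9.49 and 7.04. A region of 9391 bp, chr22:22881133-22890523, joined 5 peaks of replicate 1 and 3 of replicate 2, and had 10.1 and 13.3. It runs over IGLV3-1, MIR5571 and the lower end of IGLL5, a gene whose product resembles the surrogate light chain and which shares its last exons with the J and constant segments of lambda. Replicate 1 had a summit at that end of IGLL5, at base 22887816, with 10.1, and replicate 2 had one at 22887947 with 11.8.

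The region chr22:22890622-22897692 had fold enrichments of 10.2 and 10.0 with pileups of 177 and 125, and overlaps IGLL5, IGLJ1 and IGLC1. Its summit lay 905 bp from IGLJ1 and 652 bp from IGLC1, and the summits of the replicates were 1230 bp apart. These were the only J segment of 21 and the only light chain constant segment with a shared summit within 1 kb. Beyond them the picture changed, and no peak of either replicate lay in the 29.625 kb from just before IGLJ2 to past IGLC7. The distance to the nearest shared summit was 6.253 kb for IGLC2, 11.619 kb for IGLC3, 16.105 kb for IGLC4, 12.943 kb for IGLC5, 9.017 kb for IGLC6 and 5.962 kb for IGLC7. The lambda constant segments are near-identical copies, so reads within them can be hard to place. Beyond IGLC7, on the side where the lambda enhancer is known to lie, the region chr22:22928189-22930380 had 5.88 and 8.19 with pileups of 216 and 127.

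Kappa had few shared regions, with low fold enrichments. The strongest shared region, chr2:89106428-89106937, had fold enrichments of 5.73 and 4.63 and lay 6383 bp from IGKV1-16. Regions at 90077590-90078301 (4.0 and 3.59) and 90079322-90079924 (4.47 and 2.63) lay 4761 and 3177 bp from IGKV1D-17. On the J side, regions at 88865735-88866649 (3.18 and 2.71) and 88869758-88870127 (2.42 and 2.64) lay 4333 and 8063 bp from IGKJ1. IGKV4-1, the V segment nearest to the J segments, held the remaining region inside its span, with 2.36 and 3.12, below the genome medians in both replicates.

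No peak of either replicate lay in the 11.924 kb from the window edge through IGKC, the kappa constant gene, and IGKJ5 to IGKJ1. The nearest shared summit was 8.573 kb from IGKC. Kappa V segments come as a proximal and a distal copy of the same cluster, so reads between the copies are uncertain. The proximal copy had 1 of 40 segments with a shared summit within 1 kb and the distal copy 0 of 36. No peak lay in the 441.792 kb between bases 89143535 and 89585328. This stretch takes in the 20 V segments from IGKV6-21 to IGKV2-40 and, beyond IGKV2-40, a long part without segments. The strongest peaks of 1 replicate alone were 6.44 in replicate 1, 9.242 kb from IGKV1D-43, and 6.58 in replicate 2, inside the transcribed pseudogene LOC107985911.

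Shared regions were sorted by the distance of the summit of their strongest peak from a segment. Of the 57, this summit was inside a segment in 10 (17.5%), outside but within 1 kb in 15 (26.3%), between 1 and 5 kb away in 16 and further in 16. Segments are short, and the share of the windows that they cover was not taken. No preference for or against segments is therefore read from these counts. Those inside had pooled median fold enrichments of 7.52 and 6.86, the highest of these classes in both replicates. Of these 10, 8 were lambda regions, and heavy and kappa gave 1 each. The inside class was also the highest within heavy and within lambda. In kappa it had 2.36 and 3.12, below the 4.08 and 3.63 of kappa regions over 5 kb away. Of 343 V, D, J and constant segments, 26 had a shared summit within 1 kb (7.58%, 95% interval 5.01 to 10.9%), near the background of 6.01%. By locus it was 17 of 87 in lambda, 8 of 174 in heavy and 1 of 82 in kappa.

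The input background differed between the loci. It was lowest in heavy in both replicates, and highest in lambda in replicate 1 and in kappa in replicate 2. This background also divides the fold enrichment, and whether it bears on the differences between the loci was not tested. It can be read back from each peak as pileup plus 1, divided by fold enrichment, minus 1, and MACS2 does not let it fall below a genome-wide floor, here 3.81 fragments in replicate 1 and 4.32 in replicate 2. The median over peaks was 5.98 and 4.64 in heavy, 9.97 and 9.24 in kappa and 12.6 and 7.93 in lambda, against 16.0 and 10.0 over all peaks. In replicate 2, 13 of the 27 heavy peaks (48.1%) sat at the floor, compared with 3.09% of all peaks. Median pileups, a height not divided by the input, were 61 and 45 over all peaks, near those of lambda and above those of heavy and kappa. The heavy peaks thus had low pileups over a low background, and the part of copy number or of recombination in this was not tested.

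**Figure D5:**
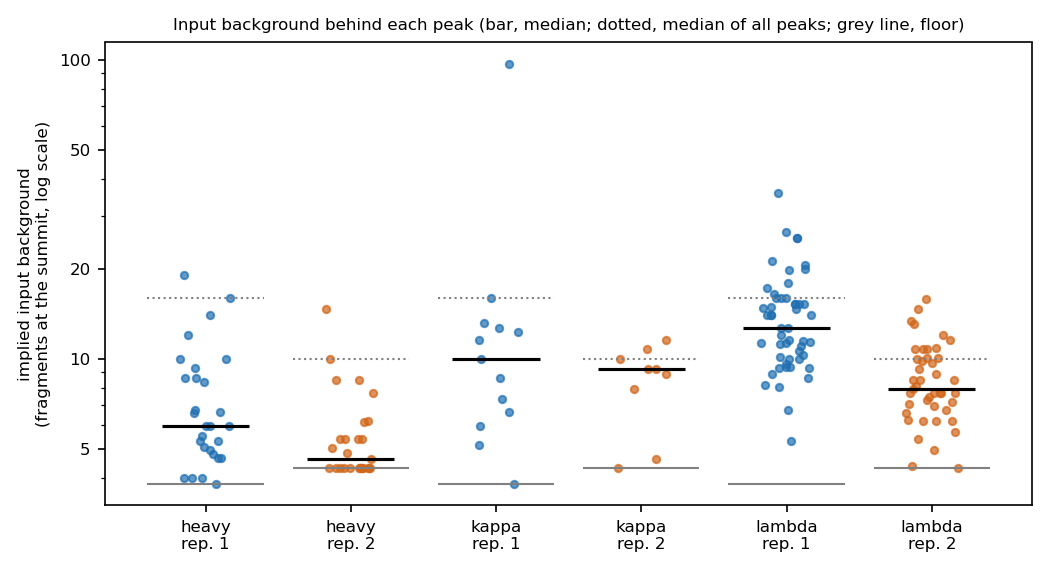
Input background behind each peak, in fragments at the summit on a log scale, by locus and replicate, with the median as a bar, the median of all peaks dotted and the floor as a grey line. Heavy peaks of replicate 2 gather at the floor of 4.32, and the outlying kappa peak of replicate 1 stands at 97.0.

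Among the other genes inside the windows, IGLL5 was the 1 of 6 protein-coding genes with a shared summit within 1 kb of its span, where 62.2% of such genes in the genome had one. VPREB1, which encodes a surrogate light chain component, had its nearest shared summit 24.760 kb away, and ZNF280B had a peak of replicate 1 alone at 3.56. Of 22 long non-coding RNAs 6 had one (26.6% in the genome), and of 28 pseudogenes that are not transcribed 1 did (2.63%). Of 7 transcribed pseudogenes 3 had one (25.9%), and of 9 microRNAs 3 did (9.52%), all at the same region beside IGHM. These counts are small and gene length differs between the kinds, so no difference from the genome is read from them. LOC124905087 had 6.17 and 6.53, and LOC105372952 and BMS1P20 share a region with 5.25 and 4.67. PRAMENP (3.88 and 4.57), LOC124903400 (4.19 and 3.37), LOC102724653 (3.07 and 2.49), and BCRP4 with POM121L1P (2.19 and 4.38) were weaker and below the genome median in both replicates.

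The window edges cut through peak-bearing stretches in heavy and lambda. The heavy window begins 2.183 kb before its first shared summit (7.75 and 7.55), and the last shared summit outside lay 4.652 kb below the edge, on the same side of IGHA2, with 8.79 and 6.05. The lambda window ends 1.125 kb after its last shared summit (5.88 and 8.19), and the next shared one, 2.056 kb beyond the edge, had 8.95 and 10.8. The kappa window had its nearest shared summits outside it 84.002 kb below (5.46 and 6.86) and 1309.59 kb above.

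A list of 34 genes that recombine, transcribe, assemble or secrete immunoglobulin was set beside the loci. A gene end had a shared summit within 1 kb in 20 of the 34 (58.8%), where 50% of all 20033 protein-coding genes did, so the share was near the background. Their median fold enrichment was 6.76 and 11.0. No such median was taken over the other protein-coding genes with a shared summit that near, so the strengths are not compared. Transcription factors of plasma cells were among them, with 20.1 and 52.4 at IRF4, 16.9 and 28.1 at XBP1, 4.07 and 6.09 at PRDM1, and 12.6 and 12.7 at POU2AF1, the octamer coactivator. The IRF4 and XBP1 values were higher in replicate 2. Genes for making and folding antibody chains had 26.0 and 27.6 at TENT5C, a poly(A) polymerase, 10.8 and 15.7 at ELL2, an elongation factor, 11.2 and 28.7 at HSPA5 and 12.1 and 19.7 at HSP90B1, chaperones of the endoplasmic reticulum, and 14.8 and 18.8 at MZB1. JCHAIN, which links antibody units, had 4.89 and 6.31. The recombinase gene RAG1 had 7.49 and 10.9 at an annotated end, in chr11:36509955-36510569, and its partner RAG2 was not among the 20. The rule takes either end of a gene, and whether the end of another gene lies there was not checked. Those without a shared summit within 1 kb included CD79A, CD79B, DNTT, IGLL1, IKZF1, IRF8, MEF2C, PAX5, POU2F2, RAG2, SPIB, VPREB1 and VPREB3, among them B-cell receptor and surrogate light chain genes. Other B-cell transcription factors of the list had one, with 2.84 and 3.41 at EBF1, 3.82 and 6.45 at BACH2, 4.33 and 3.4 at SPI1 and 5.36 and 7.27 at TCF3. Among the genes without one, the nearest shared summit ranged from 1.338 kb away at IKZF1 to 85.942 kb at CD79B. It lay just past the limit at POU2F2 (1.426 kb), VPREB3 (1.469 kb) and CD79A (1.865 kb) too. The absence at such genes depends on the 1 kb limit, and no wider distance was tried for this list.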

How the data were processed

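IRF3 ChIP-seq peak lists of 2 replicates were used. The inputs had no list of their own and served as the control of each call. Per the file headers, the authors called peaks for each library separately with MACS2 2.1.2 at a q-value cutoff of 0.05, with 74 bp tags and modelled fragments of 267 and 251 bp. The submitters' processing notes name GRCh38, deepTools 3.3.1, SAMtools 1.2, Picard 2.6.0, BWA 0.7.15 and MACS2 2.1.1. Any removal of duplicates or problem regions was not given in the sources used.

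The deposited fold enrichment is a ratio of ChIP pileup to local input background, and the deposited pileup is a signal in fragments. The deposited −log10 p and −log10 q had damaged column names and were identified from the usual MACS2 order and from their values, since the former was the larger in 100% of peaks. These values served to describe, order and filter the peaks of each list.

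Peaks overlapping by at least 1 bp were merged with pandas 2.3.3 and numpy 2.4.6 under Python 3.11.15, and the merging was tested on simulated data. The strongest peak of each replicate gave the region's values, and the one with the higher fold enrichment gave its summit. Rank was the worse of the ranks of fold enrichment in the replicates. Segments and genes came from RefSeq (GRCh38.p14), without strand or exons, so a peak could not be placed in an exon, an intron or a switch region. Distances run from the summit to the segment span, and for the antibody list to either gene end. Genome densities use chromosomes 1 to 22 and X up to the last annotated gene. Intervals used scipy 1.17.1, and plots matplotlib 3.10.9.

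The rule for named genes took the constant and J segments, IGLL5, other genes in the windows with a shared region, the 5 best-ranked regions and 5 strongest V segments of each locus, and the strongest region of each replicate alone. Other regions, the parts of the loci, the stretches without peaks, the pentamers and the background estimate were picked with their values in view. The members and lists were chosen with earlier results of these data known. Alternatives were the overlap, −log10 q, fold enrichment, window, distance and replicates used. Motifs were searched in promoter windows only, since no genome sequence was used here. An item of the antibody list is not reported here.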

Additional observations from a re-analysis of the deposited data

How the results depend on the processing

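Of 61 alternatives, 38 stayed within 1.5 times the value reported and 23 moved further. Requiring fold enrichment of at least 5 in each peak left 8 shared regions in heavy, 0 in kappa and 14 in lambda, 6.11 per megabase over the loci, and 7 V and 1 constant segments. A −log10 q of at least 10 left 0 in kappa, 9.72 per megabase and 13 V segments. With all peaks of 1 replicate, the counts ranged from 27 to 28 in heavy, 9 to 13 in kappa and 43 to 51 in lambda, 21.9 to 25.6 per megabase, and 27 to 34 V, 1 to 4 J and 2 to 4 constant segments, with the 4 J segments in replicate 2 and the 4 constant segments in replicate 1. Requiring the summit of a region's strongest peak inside the segment left 10 V, 0 J and 0 constant segments. Within 5 kb there were 42 V, 1 D, 14 J and 4 constant segments. Counting any overlap gave 2 J segments. An overlap of 50% or windows trimmed to the segments moved no count by over 1.5 times. For the antibody list, alternatives added after seeing the data gave 14 to 21 of 34 genes. Depth, and reads that fit several copies, limit what can be seen in repeats and near-identical segments. No paired analysis was possible because each input entered only through the peak calls of its own replicate and no test was run.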

Other observations

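Immunoglobulin segments also lie outside their loci, as orphons, copies moved elsewhere in the genome that cannot take part in recombination. The RefSeq table holds 40 of them. None had a shared summit within 1 kb, and the number with a peak of either replicate within 1 kb was also 0. Of other genes of up to 1 kb, 6.01% had a shared summit that near, and 40 orphons are too few to show a difference from that share.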
